A study of Mus musculus with 2 samples.

Results

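The transcripts described here are those of 39 genes that cells use around the G1/S transition and during DNA replication. They were found by symbol, and all 39 were among the 28692 genes of both count tables. By role they fell into 7 groups, namely MCM helicase (4 genes), origin licensing and firing (4), replication fork (9), nucleotide synthesis (3), histone supply and chromatin (8), repair (6), and cell cycle regulators and others (5). All 39 passed the minimum of 50 unique molecular identifiers (UMIs, each marking 1 captured transcript) over both libraries, so none was lost to a filter.

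The cells were small cell lung cancer cells from lung tumours of mice of mixed strain. The mice carried CGRP-CreER, an inducible Cre recombinase expressed from the locus of a neuroendocrine peptide, with floxed tumour suppressor alleles, Rb and P53 among them, and the Rosa26 mTmG reporter, which turns a cell GFP-positive after recombination. These alleles were shared by both groups. Vehicle mice received saline and treated mice received the DNA-crosslinking drug cisplatin at 5 mg per kg, both given at intervals of 4 days over 2 weeks, and 1 single-cell library was made from sorted live GFP-positive cells of each. The loading protocol also names etoposide for the treated tumours, and whether it was given cannot be told from the labels. Ages and the number of animals behind each library were not given in the sources used here. With 1 library per group there is no replicate, so the libraries are compared with no test, and every interval below covers counting error only.

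A cell commits to replication when E2F transcription factors, which the retinoblastoma protein holds back, switch on a shared set of genes. Their products load the MCM helicase on origins in G1, fire those origins at the start of S phase, copy DNA at the fork, make deoxynucleotides and package new DNA with histones. The MCM and other licensing transcripts peak early, around G1/S, whereas transcripts such as Rrm2 last further into S and G2. Cisplatin crosslinks block the fork, and small cell lung cancers, which have typically lost the retinoblastoma protein, replicate fast.

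E2F sites lie close to the start of many of these genes, so the windows from 250 bases before to 50 bases after the start were searched in RefSeq promoter sequences (GRCm38.p6). A window was found for 29 of the 39 genes. An E2F-type word (TTTCCCGC, TTTGGCGC, TTTCGCGC or TTTGCCGC, on either strand) occurred in 11 of the 29 (37.9%), against 626 of 27025 genes (2.32%). It occurred in 18 of 50 windows (36.0%) of other replication genes that are not among the 39. The word CCAAT occurred in 20 of the 29 windows (69.0%) against 37.9% of genes, and TTTGAA, the core of the cell cycle homology region of mitotic promoters, in 5 (17.2%) against 18.1%. None of the 14 E2F-type words overlapped a CCAAT or TTTGAA word. A match is a description of letters, not of binding.

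Stretches of 48 bases around an E2F-type word are shown for 5 genes that recur below, 2 helicase subunits, a catalytic polymerase subunit, a histone gene regulator and a ubiquitin ligase subunit. Each lies upstream of its gene and is written 5′ to 3′ on the gene's strand, with the E2F-type letters in capitals (2 overlapping words on opposite strands in Mcm5). They are chr8:75109340-75109387, plus strand (Mcm5), chr1:128359725-128359772, minus strand (Mcm6), chrX:93632266-93632313, minus strand (Pola1), chr4:32615274-32615321, plus strand (Casp8ap2), and chr1:191575545-191575592, minus strand (Dtl).
Mcm5: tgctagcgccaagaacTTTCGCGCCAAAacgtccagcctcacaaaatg
Mcm6: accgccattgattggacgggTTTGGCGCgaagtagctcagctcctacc
Pola1: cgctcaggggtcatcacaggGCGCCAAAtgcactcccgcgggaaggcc
Casp8ap2: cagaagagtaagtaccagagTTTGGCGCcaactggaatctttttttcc
Dtl: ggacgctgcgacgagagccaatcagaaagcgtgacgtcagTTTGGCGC
In Mcm5 the stretch ends 122 bases before the start, and in Dtl the word ends at the last base before the start. Over all cells the transcripts of Mcm5, Mcm6 and Dtl stood within 1.5-fold between the libraries, and those of Pola1 and Casp8ap2 were lower in cisplatin.

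The vehicle library held 32519922 UMIs in 3726 barcodes and the cisplatin library 28777462 UMIs in 4254, of which 3672 and 4218 barcodes were kept, with medians of 8205.5 and 5940.5 UMIs. The libraries shared 23 barcode sequences. Neuroendocrine markers were present in both (10 genes summed to 6060 CPM, UMI counts scaled to a common library total, in vehicle and 8361 in cisplatin, with no gene at 0). Barcodes with delta-cell endocrine markers such as Sst made up 22 of 3526 vehicle barcodes with at least 3000 UMIs (0.624%) and 850 of 3857 cisplatin barcodes (22.0%). Transcripts of 6 alveolar and club cell genes summed to 865 and 2220 CPM, of 8 myeloid genes to 104 and 25.9 CPM, and of 4 haemoglobin genes to 53.7 and 0.663 CPM. The part of these differences in the results below was not tested, except where a value without the marked barcodes is given.

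Over all kept barcodes the replication genes as a whole stood close together in the 2 libraries, with a few members apart. Their summed level was 3536 CPM (95% Poisson interval 3515 to 3556) in the vehicle library against 3409 CPM (3387 to 3430) in the cisplatin library, a log2 ratio of -0.05. By a difference of 1.5-fold in CPM, 1 gene was higher in cisplatin, Rrm2, and 7 were lower, Cdca7, Atad2, Casp8ap2, Clspn, Chaf1b, Pola1 and Ung. Of all 13446 measured genes 8.09% were higher and 21.7% lower by the same limit, so neither count of members stood above the background. The median log2 ratio (cisplatin over vehicle, 1 CPM added) was -0.21 over the 39 genes and -0.16 over all genes. Relative to that median of all genes, 3 members were higher and 3 lower, where 10.5% of all genes were higher and 10.2% lower.

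**Figure D1:**
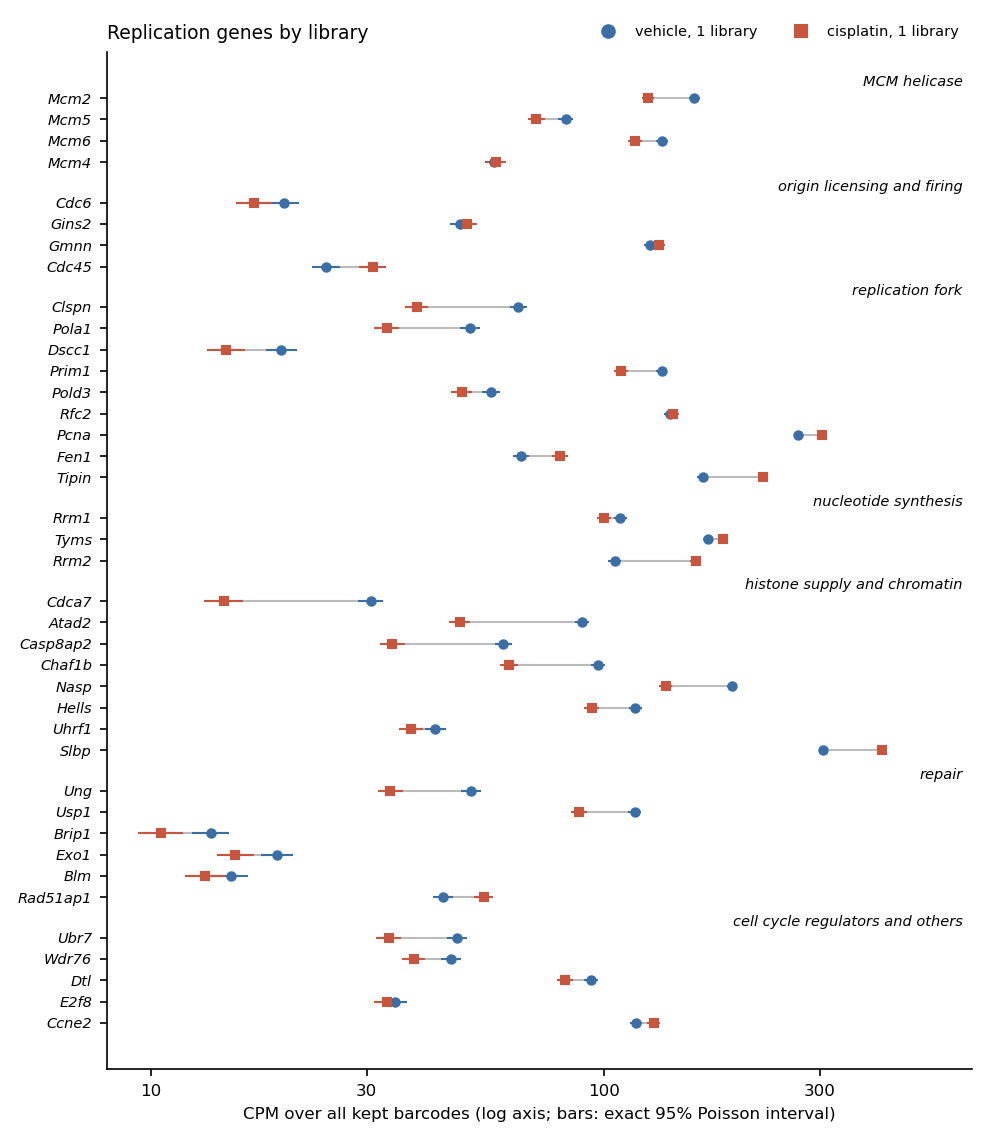
Level of each of the 39 genes in CPM (log axis) over all kept barcodes of the vehicle library (circles) and the cisplatin library (squares), grouped by role, with bars for the exact 95% Poisson interval. Rrm2, Tipin and Slbp lie to the right in cisplatin, and Cdca7, Atad2, Casp8ap2 and Clspn lie furthest to the left.

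Rrm2 (ENSMUSG00000020649, GRCm38 chr12:24708241-24714146, plus strand) encodes the regulated small subunit of ribonucleotide reductase, the enzyme that makes deoxynucleotides. Its level was 105.8 CPM (102.3 to 109.4) with vehicle and 159.7 CPM (155.1 to 164.4) with cisplatin, a log2 ratio of 0.59. The other 2 genes of nucleotide synthesis were nearer to equal, with Rrm1, the large subunit, at 109 and 100.1 CPM and Tyms, thymidylate synthase, at 170 and 183 CPM. The next ratios below that of Rrm2 stayed under the 1.5-fold limit. Tipin (ENSMUSG00000032397, chr9:64281581-64305424, plus strand), which stabilises stalled forks with Timeless, stood at 165 CPM (161 to 170) and 225 CPM (219 to 230), log2 0.44. Slbp (ENSMUSG00000004642, chr5:33634952-33652574, minus strand), the stem-loop binding protein of histone mRNAs, stood at 305 CPM (299 to 311) and 411 CPM (403 to 418), log2 0.43. Cdc45 (ENSMUSG00000000028, chr16:18780447-18811987, minus strand), which joins the MCM ring in the active helicase, stood at 24.4 CPM (22.7 to 26.2) and 30.9 CPM (28.9 to 33.0), log2 0.33. For these 4 genes the counting intervals of the libraries did not overlap.

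The 4 lowest ratios belonged to genes of chromatin and of the fork. Cdca7 (ENSMUSG00000055612, chr2:72476159-72486893, plus strand), a partner of the remodeller Hells, had a vehicle level of 30.7 CPM (28.8 to 32.6) and a cisplatin level of 14.5 CPM (13.2 to 16.0), log2 -1.03. Atad2 (ENSMUSG00000022360, chr15:58094044-58135082, minus strand), a bromodomain ATPase on newly replicated chromatin, stood at 89.6 CPM (86.4 to 92.9) and 48.1 CPM (45.6 to 50.7), log2 -0.88. Casp8ap2 (ENSMUSG00000028282, chr4:32615451-32653265, plus strand), which supports histone gene transcription, stood at 60.1 CPM (57.4 to 62.8) and 34.2 CPM (32.0 to 36.4), log2 -0.80. Clspn (ENSMUSG00000042489, chr4:126556935-126593903, plus strand), the claspin adaptor of the Atr-Chk1 checkpoint, stood at 64.8 CPM (62.0 to 67.6) and 38.7 CPM (36.41 to 41.00), log2 -0.73. Each was lower in cisplatin with intervals far apart. Chaf1b, a subunit of the chromatin assembly factor that loads histones behind the fork, stood at 97.2 and 61.9 CPM, log2 -0.64. Pola1, the catalytic subunit of the priming polymerase, stood at 50.7 and 33.2 CPM, log2 -0.60. Ung, the uracil-DNA glycosylase, stood at 51.0 and 33.8 CPM, log2 -0.58.

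Roles differed more than the whole. Of the 8 genes of histone supply and chromatin, 4 were lower and the median log2 was -0.56, although Slbp went the other way. Nasp, a histone chaperone, stood at 192 and 137 CPM, log2 -0.48, and Hells at 117 and 94.1 CPM, log2 -0.32. In the fork group the clamp Pcna was at 269 and 304 CPM (log2 0.18), the flap nuclease Fen1 at 65.7 and 80.2 CPM (log2 0.28) and the clamp loader subunit Rfc2 at 140.0 and 142 CPM (log2 0.02), while the primase Prim1 was at 134 and 109 CPM (log2 -0.30). The MCM subunits ranged from log2 -0.34 for Mcm2 (158 and 125 CPM) to 0.02 for Mcm4 (57.2 and 57.9 CPM), with Mcm6 at 134 and 117 CPM. None of the 4 MCM genes and none of the 4 licensing genes passed the limit, Gmnn, the inhibitor of origin relicensing, being at 126 and 132 CPM. Among repair genes Usp1, a deubiquitinase of the Fanconi pathway, stood at 117 and 88.1 CPM and Rad51ap1, a recombination partner, at 44.2 and 54.4 CPM. Ccne2, a cyclin that drives S phase entry, stood at 118 and 129 CPM, and Dtl, the substrate receptor that destroys licensing factors in S phase, at 93.8 and 82.1 CPM. The remaining 12 genes lay between log2 -0.49 for Ubr7, a histone ubiquitin ligase (47.5 and 33.6 CPM), and 0.05 for Gins2 (48.2 and 49.96 CPM). Among them the helicases Blm (15.04 and 13.2 CPM) and Brip1 (13.6 and 10.5 CPM) and the nuclease Exo1 (19.04 and 15.4 CPM) gave few UMIs, and the intervals of Blm overlapped. Uhrf1, which guides maintenance methylation to new DNA, stood at 42.5 and 37.6 CPM, E2f8 at 34.6 and 33.2 CPM and Cdc6 at 19.7 and 16.9 CPM, the last 2 with overlapping intervals.

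Transcript length moved with these ratios. The median log2 ratio was 0.06 over the 3355 measured genes with the shortest transcripts and -0.41 over the 3355 with the longest. Of the 7 lower members, Atad2, Casp8ap2, Clspn and Pola1 had transcripts among the longest, and over the 39 members the log2 ratio and log2 length had a Pearson r of -0.48, given as a description. Set against genes of like length, only Rrm2 remained 1.5-fold above and only Cdca7 1.5-fold below, where 9.63% of 13420 genes were above and 8.14% below, and the median of the 39 genes was 0.08.

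Other genes of the pathway, 56 in number and all measured, gave a similar picture. Of these 1 was higher, Orc4, a subunit of the origin recognition complex, at 33.1 CPM with vehicle, 57.4 CPM with cisplatin (log2 0.78). Mcmbp (log2 0.52) and Pole4 (log2 0.43) followed it without passing the limit. Lower were 8, the lowest being Ccne1, a cyclin E, at 58.3 and 27.3 CPM (log2 -1.07), the nuclease Dna2 at 34.4 and 17.8 CPM (log2 -0.91) and the clamp loader subunit Rfc1 at 130 and 76.4 CPM (log2 -0.76). The median log2 of the 56 genes was -0.13. Neither count stood above the share over all measured genes, 8.09% higher and 21.7% lower.

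Within cells, the 39 genes were then read at equal depth, with each barcode thinned at random to 3000 UMIs (3526 vehicle and 3857 cisplatin cells). A cell held a median of 8 member UMIs in vehicle (quartiles 4 to 14) and 7 in cisplatin (4 to 13). At least 10 member UMIs were found in 1405 vehicle cells (39.8%, exact binomial 95% interval 38.2 to 41.5) and 1489 cisplatin cells (38.6%, 37.1 to 40.2), intervals that overlap. At 5000 UMIs the direction turned, with 64.5% of 2891 vehicle cells and 69.2% of 2678 cisplatin cells at 10 or more. At 3000 UMIs 25 and 54 cells had none. A UMI of Slbp was found in 51.0% of thinned vehicle cells and 59.5% of cisplatin cells, of Pcna in 43.3% and 46.8%, of Rrm2 in 16.2% and 20.6%, and of Cdca7 in 8.79% and 4.15%. Before thinning these shares were 76.3% and 76.7% for Slbp and 28.3% and 29.5% for Rrm2. Among 15 barcodes marked as T, NK, B or endothelial cells, which may themselves cycle, Slbp was found in 5 (33.3%), Pcna in 4 (26.7%) and Rrm2 and Cdca7 in 2 each (13.3%), with a median depth of 9008 UMIs in the vehicle ones. For all 4 genes the thinned shares in both libraries were within the counting intervals of those 15 barcodes (11.8% to 61.6% for Slbp, 7.79% to 55.1% for Pcna, 1.66% to 40.5% for Rrm2 and Cdca7), and Cdca7 was below their share, so the shares are read no further.

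The libraries came apart when cells were divided by transcripts of mitosis. Classes were set by UMIs of 10 mitotic genes (Cdc20, Ccnb1, Plk1, Aurka, Cenpe, Cenpf, Cenpa, Kif20a, Nusap1 and Tpx2) in the thinned cell, so no member defined them. Cells with 0 such UMIs, called mitotic-zero, numbered 1938 in vehicle (55.0%) and 1871 in cisplatin (48.5%), and cells with 5 or more, called mitotic-high, 648 (18.4%) and 992 (25.7%). These are ranges of a count, not phases, and 97 vehicle and 219 cisplatin cells lay at 4 to 6 mitotic UMIs. The member sum of mitotic-zero cells was 3338 CPM (3310 to 3366) with vehicle against 2711 CPM (2681 to 2740) with cisplatin. That of mitotic-high cells was 3564 CPM (3521 to 3607) against 4138 CPM (4096 to 4180). The sum was thus lower in cisplatin in the first class and higher in the second. In the second, Pcna, Slbp and Tipin together held 536 CPM with vehicle against 943 CPM with cisplatin, and of the 39 single ratios 21 were above 0 and 18 below.

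Cells showed the same as sums. At least 10 member UMIs were held by 36.6% of mitotic-zero cells in vehicle (34.5 to 38.8) and 26.3% in cisplatin (24.3 to 28.4). Between 1 and 4 mitotic UMIs the shares were 42.0% and 41.3%. In mitotic-high cells they were 46.3% (42.4 to 50.2) and 59.1% (55.9 to 62.2). Read the other way, 50.5% of vehicle cells with at least 10 member UMIs had no mitotic UMI and 21.4% were mitotic-high, whereas in cisplatin 33.0% had none and 39.4% were mitotic-high. Median depth before thinning was 8133 and 5536 UMIs in mitotic-zero cells and 11218 and 8438 in mitotic-high cells, and its part in these shares beyond the thinning was not tested.

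**Figure D2:**
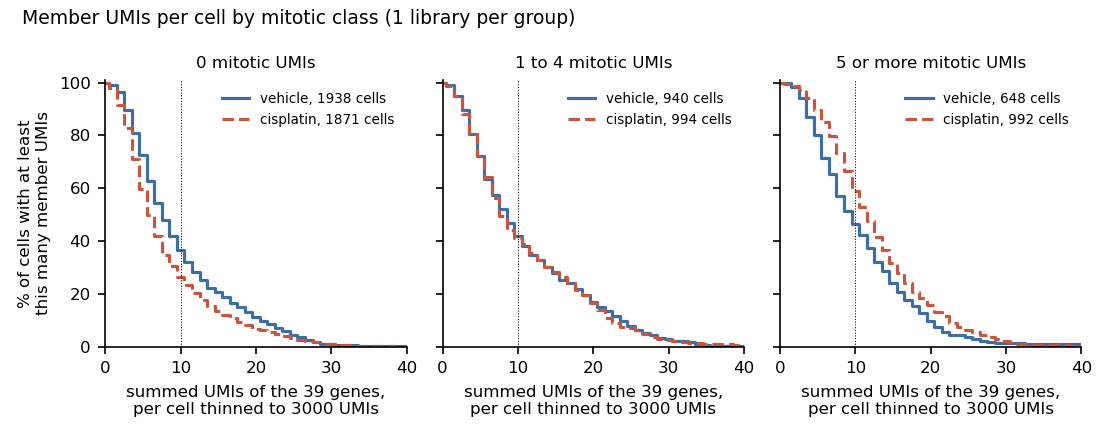
Percent of cells (vertical axis) with at least a given number of summed UMIs of the 39 genes (horizontal axis), in cells thinned to 3000 UMIs, for vehicle (solid) and cisplatin (dashed) in each mitotic class, with 10 UMIs dotted. The cisplatin curve lies below the vehicle curve at 0 mitotic UMIs (26.3% against 36.6% at 10), on it at 1 to 4, and above it at 5 or more (59.1% against 46.3%).

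In mitotic-zero cells 15 of the 39 genes were 1.5-fold lower in cisplatin and 0 were higher, where 23.2% of 12273 measured genes were lower and 7.2% higher. The median log2 was -0.50, against -0.19 over all genes, and 35 of the 39 ratios were below 0. Relative to the median of all genes 7 were lower and 0 higher, where 11.4% of genes were lower and 10.9% higher. With the other mitotic list named below, 7 were lower and 0 higher. The median log2 was then -0.30 over members and -0.18 over all genes, so the gap depended on the class rule. By the main list, histone supply and chromatin (6 of 8) and repair (4 of 6) held most of the 15. Atad2 stood at 64.4 CPM with vehicle, 24.97 CPM with cisplatin (log2 -1.33), Cdca7 at 34.7 and 15.03 CPM (log2 -1.16), Clspn at 45.1 and 20.3 CPM (log2 -1.11) and Casp8ap2 at 55.1 and 25.8 CPM (log2 -1.07). The licensing ATPase Cdc6, which loads the MCM ring, stood at 19.95 and 10.8 CPM (log2 -0.83). Slbp stood at 313 and 363 CPM (log2 0.21), Tipin at 171 and 201 CPM (log2 0.23) and Pcna at 296 and 294 CPM (log2 -0.01). Rad51ap1 stood at 17.2 CPM (15.2 to 19.3) and 11.9 CPM (9.99 to 13.98), log2 -0.50.

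Mitotic-zero cells with many member UMIs were fewer in cisplatin, 492 against 710. In these cells with at least 10, the summed level, which the selection itself raises, was 5432 CPM in vehicle and 5440 CPM in cisplatin. Among them 5 genes were lower, Atad2 (log2 -1.04), Cdca7 (-0.96), Casp8ap2 (-0.81), Clspn (-0.69) and Exo1, a mismatch repair nuclease (-0.57), and 0 were higher. Of 10648 genes measured in these cells 23.3% were lower and 6.23% higher. Mcm2, Mcm4, Mcm5 and Mcm6 stood there at log2 -0.08, -0.01, -0.15 and -0.03. These genes are among those that select the cells, so their ratios are not free of the selection. In mitotic-zero cells with under 10 member UMIs the same genes stood at log2 -0.39, -0.002, -0.46 and -0.30. In sums over cells, fewer cells with replication transcripts and less of them per cell cannot be told apart, which is why both are given.

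In mitotic-high cells 8 of the 39 genes were higher in cisplatin and 3 lower, where 7.29% of 11448 measured genes were higher and 19.3% lower. The median log2 was 0.05, against -0.14 over all genes. Its sign did not hold in 2 alternatives, though it stayed above that of all genes. With cisplatin cells weighted to the vehicle ranges of mitotic UMIs it was -0.06, against -0.15. With mitotic-high taken from 8 UMIs it was -0.002, against -0.15. The 8 were Cdc6 (9.53 CPM in vehicle, 19.3 in cisplatin, log2 0.94), Pcna (143 and 257 CPM, log2 0.84), Tipin (151 and 265 CPM, log2 0.81), Gins2, a subunit of the GINS complex of the active helicase (37.2 and 65.6 CPM, log2 0.80), Slbp (242 and 421 CPM, log2 0.79), Mcm4 (35.3 and 55.2 CPM, log2 0.63), Ccne2 (83.6 and 128 CPM, log2 0.61) and Dtl (70.0 and 107 CPM, log2 0.61). None of the 6 repair genes was higher. Lower were Atad2 (144 and 78.7 CPM, log2 -0.86), Cdca7 (17.7 and 9.97 CPM, log2 -0.77) and Clspn (91.1 and 60.5 CPM, log2 -0.58), so these 3 were lower in cisplatin in either class. With the 10 genes of the other mitotic list named below, 3 members were higher and 5 lower, where 6.82% of 11490 genes were higher and 21.2% lower.

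Within each library the members also differed among themselves in where they stood relative to mitosis. In vehicle 14 genes were 1.5-fold higher in mitotic-high than in mitotic-zero cells and 7 lower, where 10.7% of 12093 measured genes were higher and 11% lower. In cisplatin 21 were higher and 2 lower, where 12.3% of 11720 were higher and 9.59% lower. The order of the genes was alike in both libraries (Pearson r 0.946 over 39 genes, as a description). The highest ratios in vehicle were those of Rad51ap1 (17.2 CPM in mitotic-zero, 121 in mitotic-high cells, log2 2.75), Rrm2 (42.6 and 239 CPM, log2 2.46), the helicase Blm (7.82 and 33.7 CPM, log2 1.97) and E2f8, a repressor of E2F targets (18.97 and 64.0 CPM, log2 1.70). The lowest were Ung (64.9 and 14.1 CPM, log2 -2.13), Mcm2 (181 and 85.6 CPM, log2 -1.07), Mcm6 (154 and 73.8 CPM, log2 -1.05) and Pcna (296 and 143 CPM, log2 -1.04). In cisplatin Rad51ap1 (log2 3.29), Rrm2 (3.03), Exo1 (2.36) and Blm (2.14) were highest, and Ung (-1.89), Mcm2 (-0.56), Cdca7 (-0.55) and Mcm6 (-0.38) lowest.

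**Figure D3:**
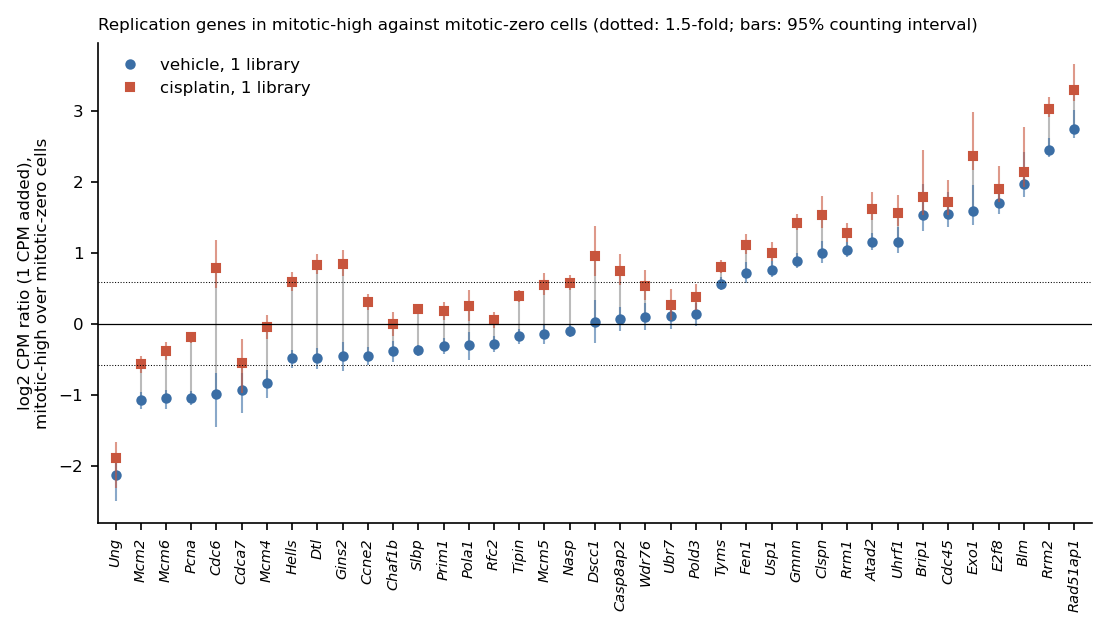
Log2 ratio of CPM (1 CPM added), mitotic-high over mitotic-zero cells, for each of the 39 genes in vehicle (circles) and cisplatin (squares), ordered by the vehicle value, with bars for the 95% counting interval of the ratio without the added CPM and dotted lines at 1.5-fold. Every square lies above its circle, from a gap of 0.15 for Ubr7 to 1.78 for Cdc6.

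The mitotic-high over mitotic-zero ratio was larger in cisplatin for all 39 genes, with a median difference of 0.53 on the log2 scale. Over 11497 measured genes the median was 0.04, and 56.1% were above 0. For each gene this difference rests on the same sums as the ratios between libraries given above, and is no separate evidence. The difference reached 1.5-fold for 13 members and fell 1.5-fold below for 0, where 4.34% of genes reached it and 3.05% fell below. It was largest for Cdc6 (log2 -0.99 in vehicle and 0.78 in cisplatin, a difference of 1.78), Dtl (-0.48 and 0.83, 1.31), Gins2 (-0.45 and 0.84, 1.29), Hells (-0.49 and 0.59, 1.08) and Dscc1, a subunit of the cohesion clamp loader (0.03 and 0.95, 0.93). It was smallest for Ubr7 (0.15), Cdc45 (0.16) and Blm (0.17). Of the other replication genes 51 of 55 were above 0 and 22 reached 1.5-fold, with a median of 0.47. Of the 10 mitotic genes 0 were above 0, with a median of -0.24. Those 10 define the classes, so their ratios depend on the class rule and are no comparison for the members.

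How the mitotic classes are made changed the size of this difference and its reach. A second list of mitotic genes was used as an alternative (Ube2c, Top2a, Mki67, Hmmr, Ccnb2, Birc5, Aurkb, Bub1, Kif23 and Tacc3), several of which appear earlier, in S and G2. With it 28 of 39 differences were above 0, the median was 0.16 (0.02 over all genes), 6 members reached 1.5-fold and 0 fell 1.5-fold below, where 3.02% of 11379 genes reached it and 3.86% fell below. Those 6 were Gins2 (1.03), Hells (0.79), Dtl (0.78), Cdc6 (0.72), Nasp (0.61) and Mcm5 (0.59), named after their values were seen. E2f8 (-0.58), Brip1 (-0.43) and Blm (-0.28) were furthest below 0, and the Cdc6 ratio in vehicle turned from -0.99 to 0.20. The share of cells with at least 10 member UMIs was then 27.9% in vehicle and 23.4% in cisplatin at 0 mitotic UMIs, and 52.6% and 61.7% at 5 or more, the same directions by smaller amounts.

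**Figure D4:**
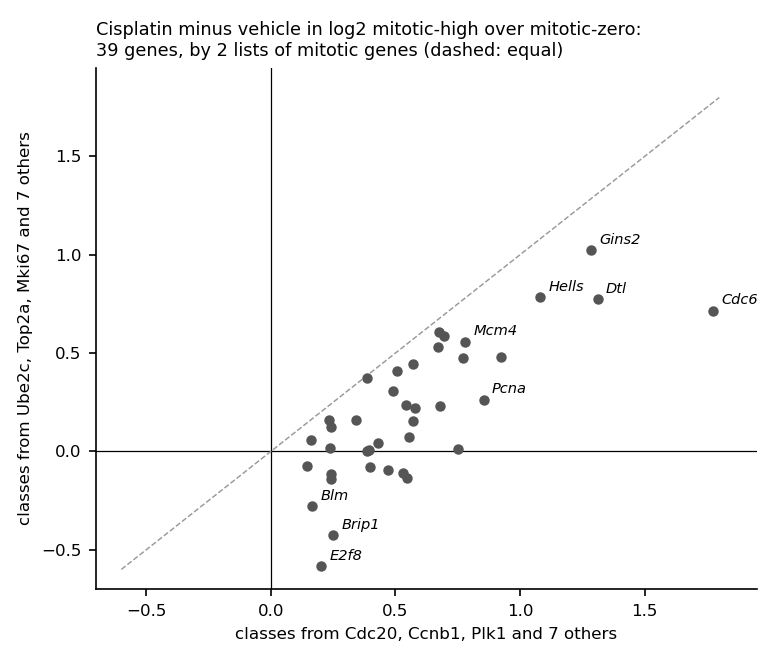
Difference between libraries (cisplatin minus vehicle) in the log2 ratio of mitotic-high over mitotic-zero cells, for each of the 39 genes, with classes from the main mitotic list (horizontal axis) and from the second list (vertical axis), and a dashed line where both are equal. All points lie right of 0, 28 lie above 0, and Gins2, Hells, Dtl and Cdc6 are high on both axes while E2f8, Brip1 and Blm are below 0 on the vertical axis.

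The mitotic-high class itself was made up differently in the 2 libraries. It held 162 of 648 cells with 5 to 9 mitotic UMIs in vehicle and 398 of 992 in cisplatin, and its mitotic genes summed to 4991 and 3842 CPM. Within cells of 5 to 9 mitotic UMIs the member sum was 4103 CPM in vehicle (4013 to 4194) and 4540 in cisplatin (4472 to 4609). It was 3852 and 4191 CPM at 10 to 14, and 3100 and 3430 CPM at 15 or more, so the libraries differed in the same direction in each range. The share of cells with at least 10 member UMIs was 48.1% and 70.4% at 5 to 9, 54.4% and 59.9% at 10 to 14, and 40.95% and 41.48% at 15 or more, with overlapping intervals in the last 2 ranges. With the cisplatin ranges weighted to the vehicle shares, all 39 differences in the mitotic-high over mitotic-zero ratio remained above 0, with a median of 0.44. Without delta-marked barcodes all 39 were above 0 too, with a median of 0.48, and with cells thinned to 5000 UMIs 35 were, with a median of 0.38.

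By role the courses over mitotic UMIs fell into distinct shapes in both libraries. The MCM sum was level at 481, 492 and 484 CPM at 0, 1, and 2 to 4 mitotic UMIs in vehicle and stood at 363, 297 and 202 CPM in the 3 ranges above. In cisplatin it began lower, at 381 and 384 CPM, reached 461 CPM at 2 to 4 and ended at 267 CPM. Mitotic-high over mitotic-zero, its log2 ratio was -0.84 in vehicle (-0.91 to -0.76) and -0.20 in cisplatin (-0.26 to -0.13). Nucleotide synthesis went the other way, from 266 CPM at 0 to 619 CPM in mitotic-high vehicle cells (log2 1.22) and from 234 to 719 CPM in cisplatin (log2 1.62). The replication fork sum was 972 and 822 CPM in vehicle (log2 -0.24) and 885 and 1063 CPM in cisplatin (log2 0.26). It was thus lower in mitotic-high cells in vehicle and higher in cisplatin. In vehicle Pcna alone went from 296 to 143 CPM, a fall about as large as that of the sum. Of the 9 fork genes 1 was 1.5-fold lower there, 2 were higher and 6 neither. Origin licensing and firing went from 186 to 278 CPM in vehicle (log2 0.58) and from 142 to 354 CPM in cisplatin (log2 1.31). The rise in vehicle was not shared by all its genes. Gmnn (log2 0.88) and Cdc45 (log2 1.55) were higher in mitotic-high vehicle cells, whereas Gins2 (log2 -0.45) and Cdc6 (log2 -0.99) were below 0. Gmnn, the inhibitor of relicensing, held 186 of the 278 CPM there. In cisplatin all 4 genes were 1.5-fold higher. Repair genes went from 204 to 392 CPM (log2 0.94) and from 133 to 337 CPM (log2 1.35), and theirs was the one sum that was lower in cisplatin in each of the 6 ranges. Sums weigh the members with most UMIs, such as Pcna in the fork group, Slbp in the histone group and Gmnn in the licensing group.

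**Figure D5:**
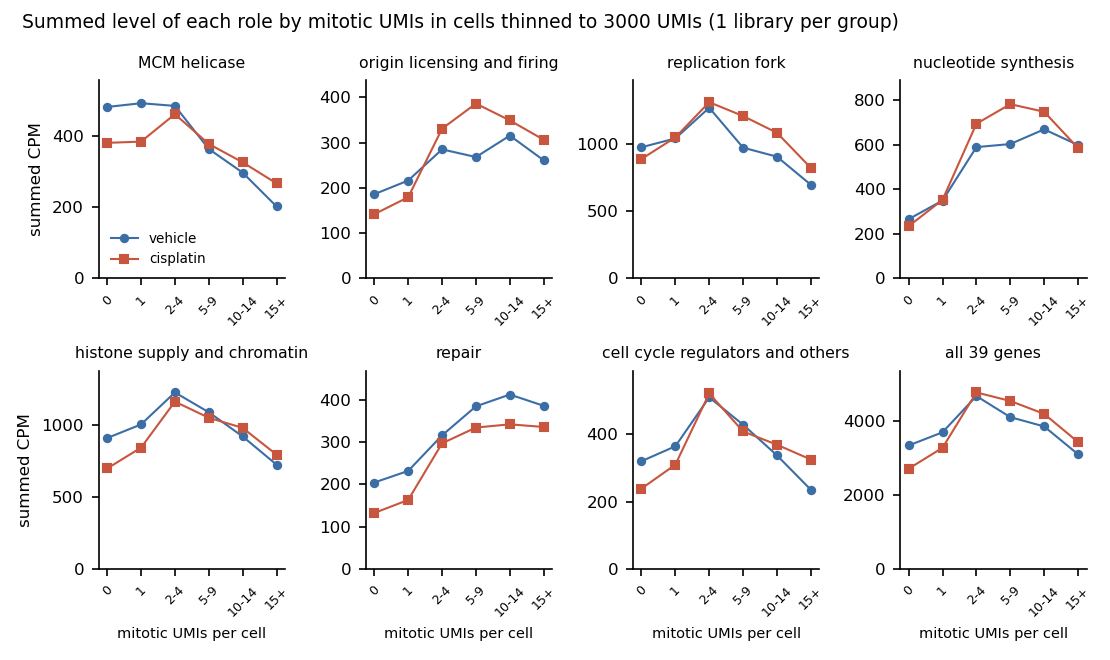
Summed CPM of each role and of all 39 genes (vertical axes, from 0) in cells with 0, 1, 2 to 4, 5 to 9, 10 to 14, and 15 or more mitotic UMIs after thinning to 3000 UMIs, for vehicle (circles) and cisplatin (squares). The sum of all 39 genes peaks at 2 to 4 mitotic UMIs in both libraries (4673 and 4770 CPM), and the cisplatin points lie below the vehicle points at 0 and 1 and above them from 2 to 4 on.

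Members were found together in cells, though weakly pair by pair. Over 741 pairs the median Pearson r of thinned UMIs was 0.084 in 3526 vehicle cells and 0.069 in 3857 cisplatin cells, and such small values in sparse counts are not read further. The highest pair was Rrm2 with Tyms in vehicle (r 0.305), both of nucleotide synthesis, and Pcna with Ccne2 in cisplatin (r 0.338). Cells with a Pcna UMI held 12.3 UMIs of the other members on average in vehicle against 6.78 in cells without, and 11.4 against 6.29 in cisplatin. Cells with a Clspn UMI in vehicle held 17.8 against 8.57. Pold3, a subunit of the lagging strand polymerase, gave the least of the vehicle genes, 10.7 against 9.59, and Cdca7 had the lowest r with the other members in cisplatin (0.06).

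Among genes that are not members, those closest to the summed member UMIs were largely shared by the libraries. In vehicle, over 7413 genes found in at least 5% of thinned cells, they were Dek (r 0.579), Tubb5, Tuba1b, 2810417H13Rik, Ptma, Tcf19, Dctpp1, Dut, Slfn9 and Smc6 (r 0.403). In cisplatin, over 6746 genes, they were Ptma (r 0.581), 2810417H13Rik, Tubb5, Dek, Tuba1b, H2afz, Stmn1, Hmgn2, Dut and Ppia (r 0.446). Cells of 1 library share its depth and capture, so these values describe the library, and Dut, the dUTPase, is on the list of other replication genes. 2810417H13Rik, also known as Pclaf, encodes a partner of Pcna, and Dek a chromatin protein. Of these genes Slfn9 differed most in level between libraries, with 68.2 CPM against 15.7 CPM in cisplatin.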

How the data were processed

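Single cells of 2 libraries, 1 vehicle and 1 cisplatin, were measured on the 10x Genomics platform, per the labels' protocols. The authors deposited unnormalized UMI counts for each gene and barcode, as the file headers and whole-number values show. The submitters' processing notes list Cell Ranger 2.0.2 and mm10. The vehicle library was assigned to its group by its title and the cisplatin library by its source name. Kept barcodes had at least 500 genes and at most 10% mitochondrial UMIs, which left out 54 barcodes of the vehicle and 36 of the cisplatin library. No barcode was removed as a doublet, and the 5% of barcodes with most UMIs were left out as an alternative.

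For each class of cells the UMIs of a gene were added up, scaled to CPM and compared as log2 ratios, 1 CPM being added to each side. Genes with 50 UMIs over both sides were measured, and 1.5-fold in CPM was called higher or lower. Intervals are exact at 95%, Poisson for sums, binomial for ratios of 2 sums and Clopper-Pearson for shares. For classes and counts per cell, barcodes with 3000 UMIs or more were thinned to that number (seed 1). Delta-marked barcodes had at least 2 thinned UMIs of 6 endocrine genes, and barcodes marked as other types at least 3 markers of T and NK, B, myeloid, endothelial, fibroblast, erythroid or ciliated cells. Coordinates and lengths (longest transcript) come from GENCODE M21, which held 28416 of the gene identifiers, and 20 bins of length were used. The steps were tested on simulated data. No test between groups is possible with 1 library each.

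In full were named the 4 highest and 4 lowest members between libraries and between mitotic classes, the 2 members of each role with most UMIs, 3 other replication genes at each end, and the 10 genes closest to the member sum. Members and lists were chosen with earlier results of these data known. Alternatives covered TMM (edgeR 4.0.16) and DESeq2 1.42.0 size factors under R 4.3.3, filters, added CPM, fold, thinning and class limits. The values against genes of like length, the weighting by mitotic range and the mitotic classes without the deepest barcodes were added after seeing the data. Python 3.11.15, numpy 2.4.6, scipy 1.17.1 and matplotlib 3.10.9 were used.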

Additional observations from a re-analysis of the deposited data

Results flagged for a closer look

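Cdc6 was the one member past the 1.5-fold limit in opposite directions in the 2 libraries. Its log2 ratio of mitotic-high over mitotic-zero cells was -0.99 in vehicle (19.95 CPM to 9.53) and 0.78 in cisplatin (10.8 CPM to 19.3), a difference of 1.78 that was not tested, since each group has 1 library. With classes from the second mitotic list the vehicle ratio was 0.20 and the difference 0.72, so the opposite directions hold for the main list only.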

How the results depend on the processing

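Over all kept barcodes (1 member higher and 7 lower in cisplatin), TMM gave 3 and 4, DESeq2 size factors 3 and 3, the median of all genes as reference 3 and 3, and a 2-fold limit 0 and 1. With cisplatin weighted to the vehicle shares of mitotic classes 0 were higher and 6 lower, and against genes of like length 1 was higher and 1 lower. The other filters, added CPM, UMI minimums, thinning and removals of marked or deepest barcodes gave 1 higher and 5 to 7 lower. In mitotic-zero cells the 15 lower members became 7 relative to the median of all genes, 7 with the second mitotic list and 5 at 2-fold. Otherwise 11 to 15 were lower, and 0 were higher throughout. The share of all genes was not computed for TMM, DESeq2 size factors, 2-fold limits or mitotic-zero cells of the second list. Those counts therefore have no background beside them. In mitotic-high cells the 8 higher and 3 lower became 3 and 5 with the second list and 1 and 0 at 2-fold, and otherwise 6 to 9 were higher and 2 to 4 lower. For mitotic-high over mitotic-zero cells, the 7 lower members in vehicle became 4 with the second list, where the Cdc6 ratio turned to 0.20. The 2 lower in cisplatin became 1 with the second list, from 3 mitotic UMIs, at 5000 UMIs and at 2-fold. The cause of these changes was not tested, apart from the stricter limit. Cells with at least 10 member UMIs were 23.6% of vehicle and 22.9% of cisplatin cells at 2000 UMIs, and 64.5% and 69.2% at 5000 UMIs, where the direction turned. At 3000 UMIs 57.2% and 55.4% had at least 7, and 23.1% and 22.2% at least 15. No paired analysis was possible because each group has 1 library. Depth limits Blm, Brip1, Exo1, Cdc6 and Dscc1 most, the members with fewest UMIs over both libraries (Brip1 had 302 in cisplatin).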
